A study of Drosophila melanogaster with 2 samples.

Results

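CG12769 peaks were described at the small nucleolar RNA (snoRNA) and small Cajal body RNA (scaRNA) genes of Drosophila melanogaster and at the genes that carry them. The members were all genes whose annotated symbol starts with snoRNA: or scaRNA: on the main chromosome arms, 274 of 18164 genes in all, made up of 257 snoRNA and 17 scaRNA genes. A host was the shortest gene of another kind on the same strand that holds the whole small RNA gene. By that definition 251 members lay in 96 hosts, 228 of them within an intron and 23 overlapping a host exon, and 23 members had no host. Members of 1 host share its locus, so counts are also given over 114 loci, namely the 96 hosts and 18 loci with no host, where members with starts less than 1000 bp apart were joined.

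The data were ChIP-seq peak lists from whole embryos of mixed sex, 10 to 24 h old. All embryos came from a transgenic line with green fluorescent protein (GFP) fused to the C-terminus of CG12769, and chromatin was pulled down with an antibody against GFP. The 2 biological replicates, numbered 5 and 7, formed the only group, so no condition was compared with another. The labels do not say what drives the tagged protein or whether the untagged gene was kept, and they do not state what CG12769 does. The deposited lists were those of replicate 5, of replicate 7 and of both replicates pooled, with 30000 peaks each, and a set of 8574 peaks that passed the irreproducible discovery rate (IDR) procedure, which keeps peaks whose order of strength is similar between replicates. A member was counted as called where the summit of a peak, its highest point, lay within 500 bp of the gene start on either side.

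SnoRNAs guide chemical modification of ribosomal RNA in the nucleolus, and scaRNAs do the same for spliceosomal RNAs in Cajal bodies. Those with C and D boxes direct methylation of the ribose by fibrillarin, and those with H and ACA boxes direct conversion of uridine to pseudouridine by dyskerin, which is Nop60B in flies. In flies most of them are cut out of the introns of other genes, so that the host's promoter drives them, while a few, U3 among them, have promoters of their own. U3 does not guide a modification but takes part in cleaving the ribosomal RNA precursor.

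The genes of 5 snoRNAs with a called peak are printed here to show both families and both arrangements, 5′ to 3′ on the gene's strand, from RefSeq's Release 6 genome, whose coordinates are those of dm6. Capitals mark the ACA box near the 3′ end, or the C box and D box of the methylation guides. The first pair had no host, and snoRNA:Psi18S-1275, snoRNA:Me28S-A774b and snoRNA:U49:66Da lay in the ribosomal protein genes RpS29, RpS12 and RpL14. They are at chr3R:20574906-20575043 (plus strand), chrX:5524302-5524465 (minus strand), chr3R:9778398-9778537, chr3L:13023580-13023652 and chr3L:8601473-8601552 (all 3 plus strand).
snoRNA:Psi18S-301: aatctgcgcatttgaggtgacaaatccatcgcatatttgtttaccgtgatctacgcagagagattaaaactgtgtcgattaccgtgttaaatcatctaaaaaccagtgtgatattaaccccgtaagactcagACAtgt
snoRNA:Psi28S-3342: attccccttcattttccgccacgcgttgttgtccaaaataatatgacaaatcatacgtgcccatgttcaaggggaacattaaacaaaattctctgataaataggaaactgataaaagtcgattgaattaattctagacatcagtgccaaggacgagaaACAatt
snoRNA:Psi18S-1275: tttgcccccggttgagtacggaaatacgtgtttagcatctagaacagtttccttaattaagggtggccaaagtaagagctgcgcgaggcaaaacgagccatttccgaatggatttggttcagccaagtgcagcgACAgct
snoRNA:Me28S-A774b: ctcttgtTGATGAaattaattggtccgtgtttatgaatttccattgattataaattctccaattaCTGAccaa
snoRNA:U49:66Da: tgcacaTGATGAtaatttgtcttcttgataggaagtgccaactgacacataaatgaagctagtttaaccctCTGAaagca

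For the 2 members with no host, the 100 bases before the gene are given with its first 20 bases in capitals, because the called summits lay in these stretches. The summit was 78 bp upstream of the first base of snoRNA:Psi18S-301 and at the first base of snoRNA:Psi28S-3342. The windows are chr3R:20574806-20574925 (plus strand) and chrX:5524446-5524565 (minus strand).
snoRNA:Psi18S-301: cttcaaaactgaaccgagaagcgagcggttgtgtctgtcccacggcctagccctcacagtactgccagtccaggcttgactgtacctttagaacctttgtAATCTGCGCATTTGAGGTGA
snoRNA:Psi28S-3342: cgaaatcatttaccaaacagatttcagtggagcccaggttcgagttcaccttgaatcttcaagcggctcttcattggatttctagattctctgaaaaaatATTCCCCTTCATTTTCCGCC

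The starts of 10 hosts follow, with 50 bases before an annotated start and 20 from it, on the host's strand, and these are referred to below beside the promoter peaks. The first 8 had a called peak that was at once the host's promoter peak and within 500 bp of a member, and Arpc2 and RpL28, which hold 17 and 5 members, had no promoter peak in any list. Capitals mark a run of 5 or more pyrimidines that begins with C within 2 bp of the start, the letters that a terminal oligopyrimidine start would show. RpL14 is at chr3L:8600956-8601025, RpS29 at chr3R:9778047-9778116, RpL15 at chr3L:27267206-27267275, RpL3 at chr3R:11221844-11221913, RpS12 at chr3L:13023302-13023371 and Arpc2 at chr2L:20417007-20417076, all on the plus strand. RpS6 is at chrX:7901312-7901381, RpL17 at chrX:6744219-6744288, Uhg2 at chr2L:9894984-9895053 and RpL28 at chr3L:3222941-3223010, all on the minus strand.
RpL14: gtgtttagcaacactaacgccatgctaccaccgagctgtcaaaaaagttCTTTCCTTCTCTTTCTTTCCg
RpS29: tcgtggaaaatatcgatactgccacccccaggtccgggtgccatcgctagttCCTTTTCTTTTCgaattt
RpL15: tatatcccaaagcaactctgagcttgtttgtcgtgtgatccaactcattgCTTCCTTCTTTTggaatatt
RpS6: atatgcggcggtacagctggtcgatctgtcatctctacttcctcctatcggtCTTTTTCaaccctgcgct
RpL17: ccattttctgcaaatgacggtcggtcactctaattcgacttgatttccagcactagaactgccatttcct
RpL3: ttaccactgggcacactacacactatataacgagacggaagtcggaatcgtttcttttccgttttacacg
RpS12: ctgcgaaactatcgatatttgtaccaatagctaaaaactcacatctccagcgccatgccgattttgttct
Uhg2: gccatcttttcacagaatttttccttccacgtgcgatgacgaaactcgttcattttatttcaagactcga
Arpc2: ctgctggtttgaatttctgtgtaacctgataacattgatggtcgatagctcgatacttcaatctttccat
RpL28: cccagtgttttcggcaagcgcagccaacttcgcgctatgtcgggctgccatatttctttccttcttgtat

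Few of the small RNA genes had a peak at their start. In the IDR set 31 of 274 members were called (11.3%, 95% interval 7.82 to 15.7), against 17.0% of all genes. In the pooled list 52 members were called (19.0%), against 31.2% of all genes. The list of replicate 5 called 61 members (22.3%), against 33.5% of all genes, and that of replicate 7 called 57 (20.8%), against 31.4%. Both replicates called 47 members, replicate 5 alone called 14, replicate 7 alone called 10, and 203 were called in neither. Counted by gene, the members' share was below that of all genes in each of the 4 lists. Counted by locus it was not: 28 of 114 loci were called in the IDR set (24.6%) and 40 of 114 in the pooled list (35.1%). A locus with several members gives a summit more places to be counted, and all genes were not joined into loci. With 1000 bp in place of 500 bp the order by gene turned in the IDR set, with 69 members called (25.2%), against 22.2% of all genes. The intervals here and below are exact binomial (Clopper-Pearson) ones, cover counting error only and treat genes that share a peak as separate.

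The 31 called members belonged to 28 loci, 19 hosts and 9 loci with no host, and rested on 29 distinct peaks. By name, 93 of the 274 members were put in the family with C and D boxes, 115 in that with H and ACA boxes and 17 among scaRNAs, and 49 names gave no class. In the IDR set 9 members of the C and D box family (9.68%), 13 of the H and ACA box family (11.3%), 9 members with other names (18.4%) and none of the scaRNAs were called. For scaRNAs the interval reached 19.5%, so at 17 genes a share like that of all genes was not distinguishable. A single scaRNA was called in the pooled list, scaRNA:MeU1:95C-A24, whose gene start is 428 bp from that of a U1 snRNA gene.

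Members without a host were called far more often than hosted ones. In the IDR set 11 of 23 members with no host were called (47.8%, interval 26.8 to 69.4), against 20 of 251 hosted members (7.97%, interval 4.93 to 12), and the intervals did not overlap. In the pooled list the counts were 17 of 23 without a host (73.9%) and 35 of 251 with one (13.9%). The list of replicate 5 called 18 of 23 (78.3%) and 43 of 251 (17.1%), and that of replicate 7 called 18 of 23 (78.3%) and 39 of 251 (15.5%). Each replicate by itself thus showed the same order as the IDR set. Counted by locus the gap was smaller. In the IDR set 9 of 18 loci with no host and 19 of 96 hosts had a called member, and in the pooled list 13 of 18 and 27 of 96. No intervals were taken over loci. Within 200 bp 6 of the 23 members with no host were called (26.1%), and 7 of 23 (30.4%) were called by a summit with no start of another gene within 500 bp.

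Among hosted members the share called was highest close to the host's start. Of the 35 members that start within 500 bp of a transcript start of the host, 10 were called in the IDR set (28.6%, interval 14.6 to 46.3). Farther in, 2 of 51 were called at over 500 and up to 1000 bp, 3 of 75 at over 1000 and up to 2000 bp, and 5 of 90 beyond 2000 bp, so that the other 10 of the 20 called hosted members lay over 500 bp from a host start. The median member start was 1465 bp from the nearest host start, so most members lay out of reach of a peak at the host promoter. Pooled over hosts, the share of small RNA gene starts near a summit was not above that of host bases. Long hosts, such as Dys with 136204 bp and 1 member, weigh most among the bases. Hosts with many members weigh most among the starts, so members were not compared with the rest of their own hosts. Over 500 bp from a host start, 10 of 216 member starts had an IDR summit within 500 bp (4.63%), against 7.56% of the bases of the same hosts. Within 500 bp of a host start the share was 28.6% for member starts and 42.7% for bases. Over all bases of the arms it was 5.95%.

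**Figure D1:**
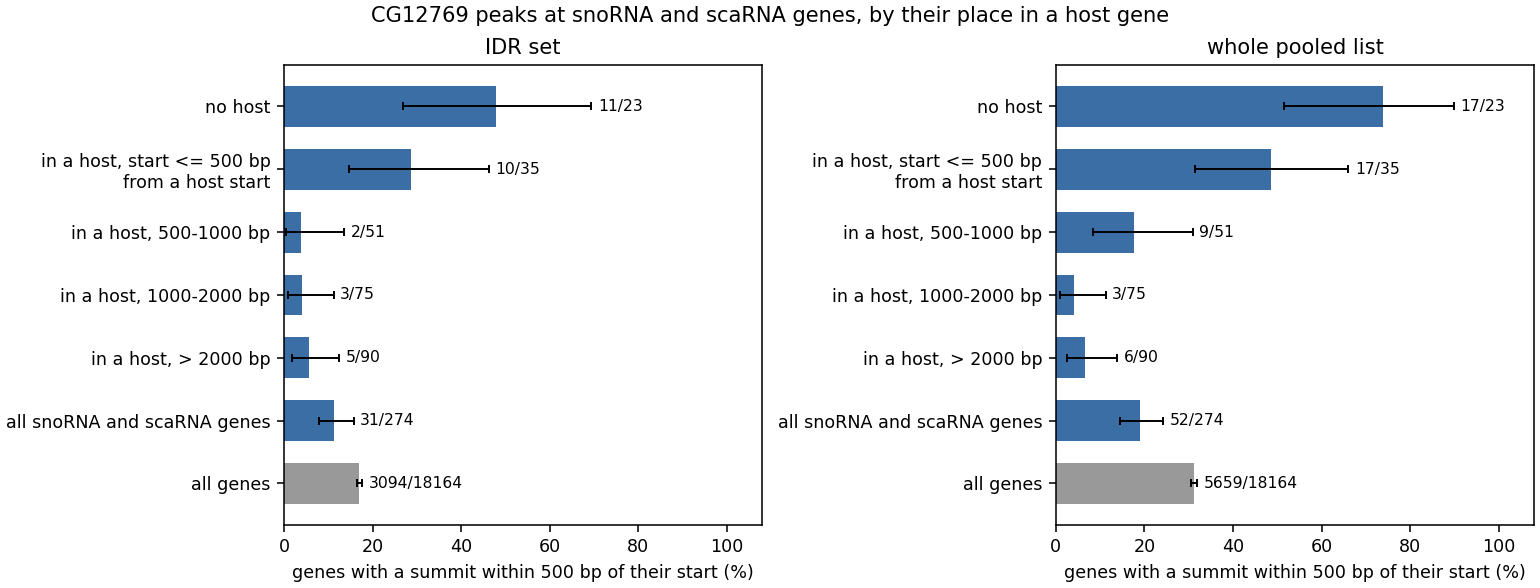
Share of snoRNA and scaRNA genes with a summit within 500 bp of their start (x axis, percent), by their place in a host gene (blue) and for all genes (grey), in the IDR set (left) and the pooled list (right). Bars are shares, lines exact 95% binomial intervals, and the counts stand beside them. Genes with no host reach 47.8% in the IDR set and hosted genes over 500 bp from the host start stay at or below 5.56%.

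Other small RNA genes were called as follows. Of 290 transfer RNA (tRNA) genes, which RNA polymerase III transcribes, 61 were called in the IDR set (21.0%) and 175 in the pooled list (60.3%). Of 32 small nuclear RNA (snRNA) genes, which encode the spliceosomal RNAs, 6 were called in the IDR set (18.8%). In the IDR set the snoRNA and scaRNA genes with no host were at 47.8% (interval 26.8 to 69.4). The tRNA genes with no host were at 21.6% (50 of 231, interval 16.5 to 27.5), and the intervals overlapped slightly. In the pooled list the intervals overlapped as well. The shares there were 73.9% (51.6 to 89.8) for the snoRNA and scaRNA genes and 61.9% (55.3 to 68.2) for the tRNA genes with no host. The intervals overlapped in replicate 5 (78.3% and 58.0%) and in replicate 7 (78.3% and 59.7%) too. The snRNA genes with no host were at 23.8% (5 of 21, interval 8.22 to 47.2), an interval that overlaps that of the snoRNA and scaRNA genes with no host.

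The 9 called loci with no host carried peaks of widely different strength. The authors' signal value, which ranks peaks within 1 list, ran between 169.67 and 16058.3 in the IDR set, with a median of 289, and rank 1 is the strongest peak. The strongest such peak lay 285 bp upstream of snoRNA:185, with a signal of 374 (rank 714) in replicate 5, 766 (rank 300) in replicate 7 and 1135 in the pooled list. Its summit was also 94 bp from the start of a tRNA gene, tRNA:Glu-TTC-1-5. A weaker IDR summit lay 295 bp downstream of the start of snoRNA:185, with a signal of 221.

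Next came snoRNA:Psi18S-176, named for a pseudouridine of the small ribosomal subunit RNA, whose summit lay 24 bp downstream of the gene's first base. Its signal was 367 (rank 743) in replicate 5, 442 (rank 856) in replicate 7 and 807 in the pooled list. Its nearest other gene is lncRNA:CR44805, which starts 513 bp from the gene's start. The pair of genes printed above stood at similar levels. At snoRNA:Psi28S-3342 the signal was 169 (rank 2868) in replicate 5, 237 (rank 2557) in replicate 7 and 398 in the pooled list. At snoRNA:Psi18S-301 it was 198 (rank 2217) in replicate 5, 178 (rank 4055) in replicate 7 and 381 in the pooled list. Leaving out snoRNA and scaRNA genes, the nearest start of another gene was 6965 bp away for snoRNA:Psi28S-3342 and 2104 bp away for snoRNA:Psi18S-301.

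A run of 4 small RNA genes on arm 2R, snoRNA:Or-ACA7, scaRNA:MeU1b-A234, snoRNA:Or-ACA6 and snoRNA:Or-CD13, lies opposite the gene egr, which encodes a ligand of the tumour necrosis factor family. Its IDR summit was 487 bp upstream of snoRNA:Or-ACA6 and 510 bp from snoRNA:Or-CD13, just inside and just outside the limit of 500 bp. The signal there was 152 (rank 3371) in replicate 5, 422 (rank 941) in replicate 7 and 577 in the pooled list, a wide gap between the replicates' ranks. A run of 3 on the same arm, snoRNA:Psi28S-1153, snoRNA:2R:9445205 and snoRNA:2R:9445410, shared 1 weak peak. Its signal was 96.0 (rank 6477) in replicate 5, 86.9 (rank 10439) in replicate 7 and 174 in the pooled list, and its summit lay 400 bp from the start of CG13334. The remaining called loci were snoRNA:Or-aca4 with a pooled signal of 241 and the summit 56 bp into the gene, snoRNA:Or-CD14 with 219 and the summit 351 bp downstream of the start, and a U3 gene.

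U3 showed how copies limit such calls. The U3 gene snoRNA:U3:54Ab had a called peak with its summit 110 bp downstream of the start, and signals of 134 (rank 4155) in replicate 5, 104 (rank 8546) in replicate 7 and 229 in the pooled list. A tRNA gene, tRNA:Leu-AAG-1-3, starts 427 bp from that summit. The neighbouring copy snoRNA:U3:54Aa differs from it at 0 of 210 bases and was not called in the IDR set or in replicate 5, but had peaks of rank 22342 in replicate 7 and 26266 in the pooled list. The copy snoRNA:U3:9B on arm X had peaks of rank 21167 in replicate 5, 11684 in replicate 7 and 14528 in the pooled list. The labels and file notes do not say how reads that match several places were treated, so the split between these copies is uncertain.

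For 6 of the 9 called loci with no host, no summit had the start of a gene outside the snoRNA and scaRNA genes within 500 bp, and for snoRNA:185 the weaker of its summits had none. Peaks covered a member's first base at 7 of the 9 loci. Of the 12 members with no host that lay outside every gene, 8 were called, and of the 11 that lay opposite a gene on the other strand, 3 were called. Those not in the IDR set included snoRNA:Me18S-A1806, with peaks of rank 25311 in replicate 5, 14776 in replicate 7 and 17784 in the pooled list, and snoRNA:Or-ACA7, with ranks of 20274, 21363 and 19807 in the same order. The gene snoRNA:Psi28S-2622 had a summit in replicate 5 alone (rank 6829), scaRNA:MeU1b-A234 in replicate 5 alone (rank 20274) and snoRNA:Me28S-C2789 in replicate 7 alone (rank 23836). In no list was there a summit at snoRNA:Me18S-G1506, snoRNA:Or-CD17 or snoRNA:Or-ACA8, 3 of the 23.

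**Figure D2:**
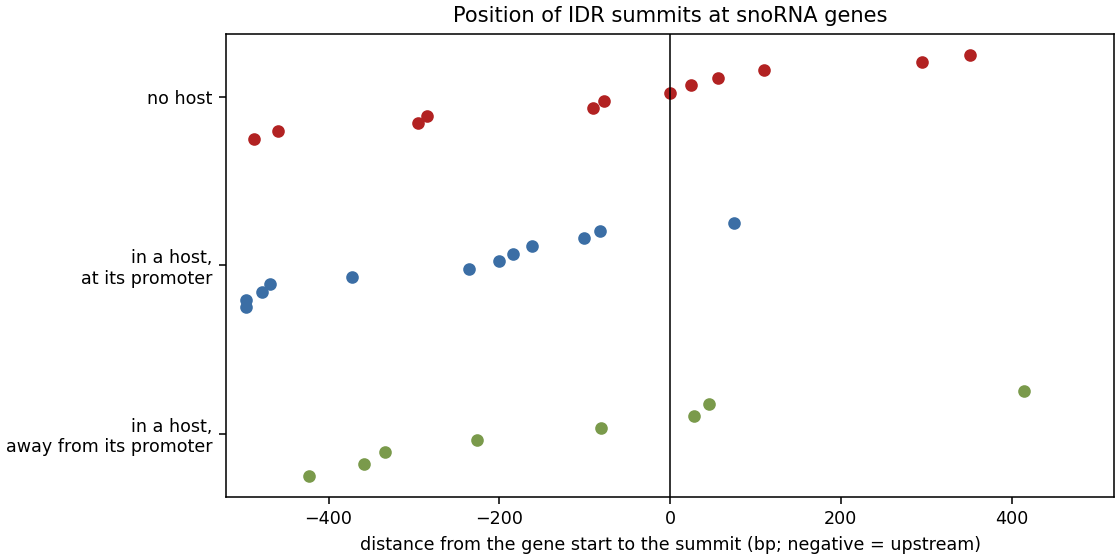
Distance between a small RNA gene's start and each called IDR summit (x axis, bp, negative upstream), for genes with no host, hosted genes whose peak is at the host promoter and hosted genes whose peak is elsewhere. Each point is 1 gene and 1 summit, spread vertically for view. Of the 12 hosted genes with a peak at the host promoter, 11 have the summit upstream of the small RNA gene. This side is largely set by the grouping, because a hosted gene lies behind the host's start. With no host the summits lie on both sides.

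Called hosted members took their peak either from the host promoter or from elsewhere. Of the 20 called hosted members, 12 in 11 hosts had their nearest summit within 500 bp of a transcript start of the host, and 8 in 8 hosts did not. Members in the hosts with an IDR promoter summit numbered 110, of which 19 were called, and members in the other hosts numbered 141, of which 1 was called. The 12 called by a host promoter summit can lie only in the first group, so most of this difference is set by the grouping. In the pooled list 20 called members had the nearest summit at the host promoter and 14 had no summit there. With 200 bp as the limit for both the member start and the host promoter, 4 were at the host promoter and 5 away from it. Those 5 included snoRNA:gcl-a and snoRNA:Me28S-A1322, whose summits lay 447 and 344 bp from a host start.

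The strongest of these was at RpL14, a protein of the large ribosomal subunit. The IDR peak had its summit 30 bp upstream of the host start and 497 bp upstream of snoRNA:U49:66Da, with a signal of 1191 (rank 357) in the pooled list and 746 (rank 316) in replicate 7. In replicate 5 the RpL14 promoter peak had a signal of 455 (rank 481), but its summit lay over 500 bp from the snoRNA gene. This was the 1 called member of 31 without a summit in both replicates. The gene Nelf-E starts 97 bp from the same summit.

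Uhg4, a noncoding host of 7 snoRNA genes, had a summit 85 bp upstream of its start, which called snoRNA:Psi28S-2949 and snoRNA:Or-aca5. Its signal was 305 (rank 1040) in replicate 5, 541 (rank 598) in replicate 7 and 843 in the pooled list. At RpS29, of the small subunit, the summit lay 16 bp upstream of the start and 372 bp upstream of snoRNA:Psi18S-1275. The signal there was 271 (rank 1298) in replicate 5, 464 (rank 795) in replicate 7 and 730 in the pooled list. RpL17 had a summit 55 bp upstream of its start, with signals of 291 (rank 1132) in replicate 5, 404 (rank 1021) in replicate 7 and 695 in the pooled list. There the called member was snoRNA:Psi28S-1232, and tRNA:Phe-GAA-1-2 starts 250 bp from the summit. At RpL3, with snoRNA:Me18S-C1096, the signal was 202 (rank 2155) in replicate 5, 353 (rank 1307) in replicate 7 and 543 in the pooled list. In all 4 hosts named in this paragraph replicate 7 ranked the peak higher than replicate 5.

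Weaker promoter peaks reached a member in the other 6 hosts. At RpS12, with snoRNA:Me28S-A774b, the pooled signal was 359, with ranks of 4406 in replicate 5 and 2432 in replicate 7. At gcl, which acts in making germ cells, with snoRNA:gcl-a, it was 385, with ranks of 3111 and 2697 in the same order. The gcl summit lay 447 bp downstream of the host start. Uhg2, a noncoding host of 4 members, had 313 at snoRNA:Me18S-A1576 and ranks of 7874 and 2824, and the gene Bka starts 218 bp from its summit. At eEF1alpha1, the elongation factor that brings aminoacyl-tRNA to the ribosome, the summit 75 bp downstream of the start of snoRNA:Me28S-A1322 had 252 and ranks of 11364 and 3002. That summit was 344 bp from an annotated host start. The strongest promoter peak of eEF1alpha1, with 543, lay 1014 bp from the member. RpL15, with snoRNA:Me18S-G1358c, had 188 and ranks of 9708 and 6232, and RpS6, with snoRNA:Or-aca2, had 176 and ranks of 8668 and 8367. The last 2 stand near the bottom of the IDR set.

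In 8 hosts the called summit was inside or behind the gene and away from its promoter. These hosts were between 2411 and 33948 bp long. At Act57B, a muscle actin, the summit near snoRNA:660 lay 1615 bp from the host start, with ranks of 1907 in replicate 5 and 2446 in replicate 7 and a pooled signal of 459. At Uhg5, the noncoding host of 11 snoRNA genes, it lay 414 bp downstream of the start of snoRNA:Or-CD4 and 3066 bp from the host start, past the host's annotated end at 2897 bp. The ranks there were 2373 in replicate 5 and 2492 in replicate 7, close to each other, and the pooled signal was 428. At hts, the fly adducin, the summit near snoRNA:hts-a had a pooled signal of 357 and lay 27 bp from the start of tRNA:Ser-CGA-1-4. The others were Swim with snoRNA:Me18S-C1968 (pooled signal 320), tn with snoRNA:abba-a (271), CG3902 with snoRNA:Psi28S-2566 (254), drn with snoRNA:Me18S-G1358a (234) and AdamTS-A, a secreted metalloprotease, with snoRNA:Or-ACA9 (221). Swim stood out in its replicates, with ranks of 1980 in replicate 5 and 8499 in replicate 7. All of the 8 but Uhg5 also had an IDR summit at their own promoter, although Swim had no promoter summit in replicate 7.

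**Figure D3:**
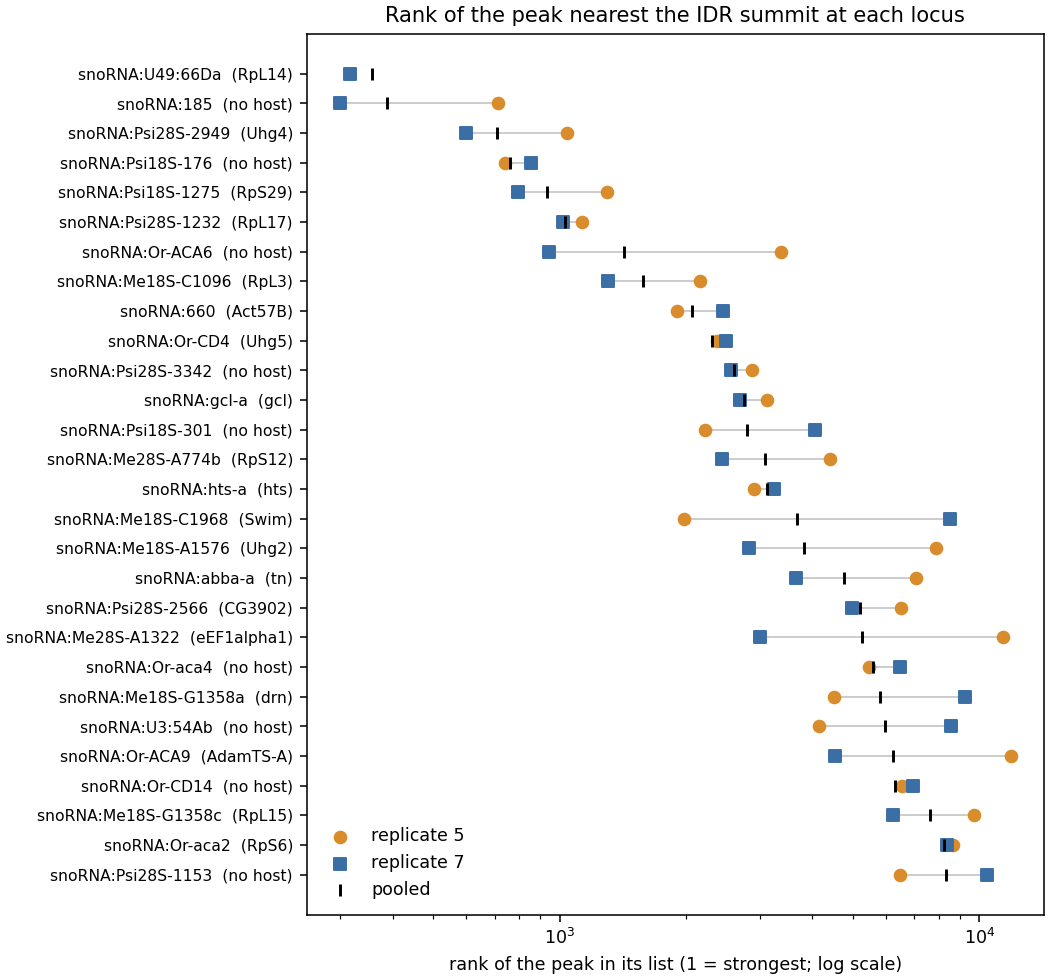
Rank of the peak nearest the IDR summit at each of the 28 called loci (x axis, log scale, 1 is the strongest) in replicate 5 (circles), replicate 7 (squares) and the pooled list (bars), labelled by the small RNA gene and its host. Of the 27 loci present in both replicates, 19 have ranks within 2-fold of each other and 16 have the lower rank number in replicate 7.

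Across the 29 distinct called peaks the signal had a median of 356.8, against 288.94 in the whole IDR set, and 17 of them were above that median. Among the 2143 strongest of the 8574 peaks of the IDR set there were 9 of the 29. Of the 27 loci called in both replicates, 21 were among the first 8574 peaks of each replicate's list. The members just inside the limit were snoRNA:Or-ACA6 at 487 bp, snoRNA:Or-aca5 at 497 bp and snoRNA:U49:66Da at 497 bp, and those just outside were snoRNA:Or-CD13 at 510 bp, snoRNA:Me18S-G1620 at 525 bp and snoRNA:Or-CD9b at 563 bp.

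Turning to the hosts themselves, their promoters were often called, in contrast to the small RNA genes they hold. A host promoter was called where a summit lay within 500 bp of any annotated transcript start. In the IDR set 48 of 96 hosts had such a summit (50%, interval 39.6 to 60.4). Among protein-coding hosts 46 of 86 had one (53.5%, interval 42.4 to 64.3), against 21.3% of all protein-coding genes and 21.1% of those that host no member (2929 of 13859, interval 20.5 to 21.8). In the pooled list the share was 62.8% of coding hosts, against 34.9% of all coding genes. Replicate 5 had 67.4% of coding hosts, against 37.5%, and replicate 7 had 60.5%, against 35.0%. Both replicates called 55 of the 96 host promoters, replicate 5 alone 7 and replicate 7 alone 2, and in no list did 32 hosts, with 89 members, have one.

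Hosts have more annotated starts than other genes, which gives a summit more places to be counted. The median was 2 distinct starts for coding hosts and 1 for coding genes that host no member. Among genes with 1 start, 15 of 39 coding hosts were called (38.5%, interval 23.4 to 55.4), against 14.2% of those that host no member (1445 of 10207). With 2 starts it was 15 of 24 hosts (62.5%, interval 40.6 to 81.2), against 32.6% (828 of 2542), and with 3 or more 16 of 23 (69.6%, interval 47.1 to 86.8), against 59.1% (656 of 1110). The intervals of hosts with 1 or 2 starts lay above the share of genes that host no member, and that of hosts with 3 or more starts included it. With the annotated gene start alone, 42 of 96 hosts were called (43.8%), against 18.6% of coding genes. Levels of transcription were not measured in these data, so their part in these shares was not tested.

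Genes for ribosomal proteins were the kind of host called most often among those with more than 3 hosts. Of 28 such hosts 19 had an IDR promoter summit (67.9%, interval 47.6 to 84.1). Of the ribosomal protein genes that host no member, 30 of 60 had one (50%, interval 36.8 to 63.2), and the intervals overlap. Among coding hosts outside that family 27 of 58 were called (46.6%, interval 33.3 to 60.1), which lies above the 21.1% of coding genes that host no member. The number of transcript starts was not matched in this comparison, so its part in the difference was not tested. Of the 10 noncoding hosts, 2 were called (20%, interval 2.52 to 55.6).

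**Figure D4:**
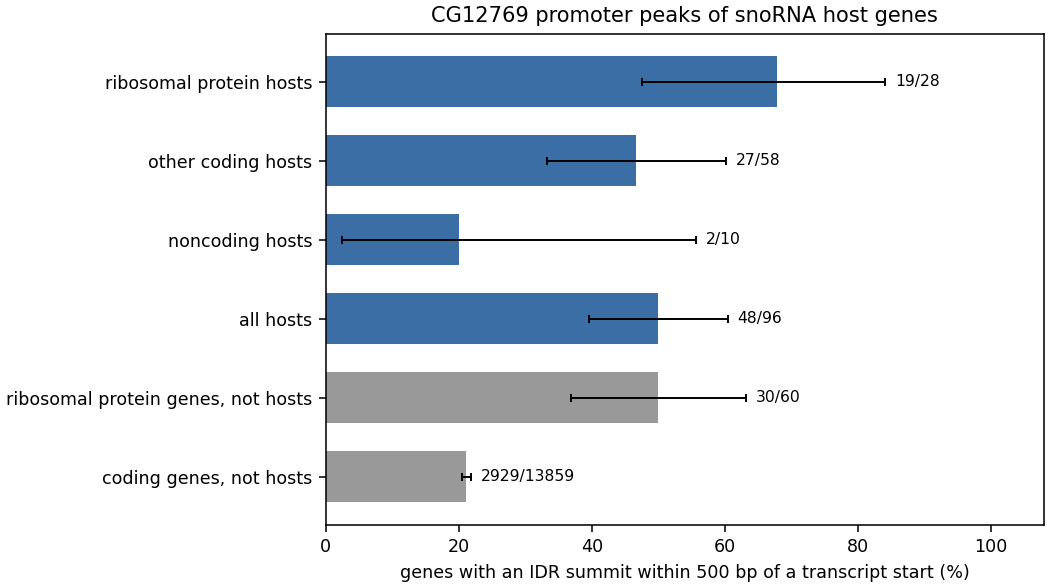
Share of host genes that have an IDR summit at a transcript start, within 500 bp (x axis, percent), by kind of host (blue), beside ribosomal protein genes and protein-coding genes that host no small RNA gene (grey). Bars are shares, lines exact 95% binomial intervals, and the counts stand beside them. Ribosomal protein hosts reach 67.9% and coding genes that are not hosts 21.1%.

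Among ribosomal protein hosts the summit lay close to the start. Its offset ran between 173 bp upstream and 94 bp downstream, with a median of 16 bp upstream, and 18 of 19 lay within 100 bp. Over all 48 called hosts the median was 42 bp upstream and 32 lay within 100 bp. After RpL14, the highest signals were those of RpL30 (pooled 985, ranks 698 in replicate 5 and 492 in replicate 7), RpS20 (939, ranks 1122 and 463) and RpL22 (818, ranks 792 and 818). Of the 3 hosts of this family with the most members, RpS5a with 14 members had 329 and ranks of 5800 and 2712. RpS7 with 7 had 249 and ranks of 5002 and 5480, and RpS16 with 5 had 477 and ranks of 2552 and 1736. RpL28, also with 5, had no promoter summit in any list, and neither did 4 others of the 28. RpL11 had a peak of rank 957 in replicate 5 and none in replicate 7, the pooled list or the IDR set, and RpL5 had one of rank 4658 in replicate 7 and none in replicate 5. These hosts, RpL30, RpS20, RpL22, RpL11 and RpL5, were named after their values were seen.

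The strongest host promoter peaks lay outside the ribosomal protein genes. CG1142, with 1 member, had a pooled signal of 1761 and ranks of 371 in replicate 5 and 110 in replicate 7. The kra promoter, of a translation regulator with 8 members, had 1451 and ranks of 198 and 288. Stt3A, the catalytic subunit of an oligosaccharyltransferase, with 3 members, had 1352 and ranks of 830 and 168. None of these 3 hosts had an IDR summit within 500 bp of its own small RNA genes.

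Hosts with many small RNA genes were not called more often. The 14 hosts with 5 or more members hold 129 of the 274, and 5 of the 14 had an IDR promoter summit, namely Uhg4, kra, RpS5a, RpS7 and RpS16. In those 14 hosts 3 of the 129 members were called. By number of members the hosts called were 28 of 59 with 1 member (47.5%), 11 of 17 with 2 or 3 (64.7%) and 9 of 20 with 4 or more (45.0%), with overlapping intervals. In no list was there a promoter summit at 6 of the 14: Arpc2, a subunit of the complex that nucleates actin branches, with 17 members, dom, a chromatin remodelling ATPase, with 15, Nop60B with 7, and CG10576, lncRNA:CR45184 and RpL28 with 5 each. Arpc2 had an IDR summit 707 bp downstream of its start, before its first member at 1291 bp. The other 3 were in the pooled list and not in the IDR set. Uhg1, with 16 members, had ranks of 4912 in replicate 5 and 16436 in replicate 7. Uhg5, with 11, had 12793 and 10247, and Hrb98DE, which encodes a nuclear RNA-binding protein, with 7, had 24734 and 10970.

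**Figure D5:**
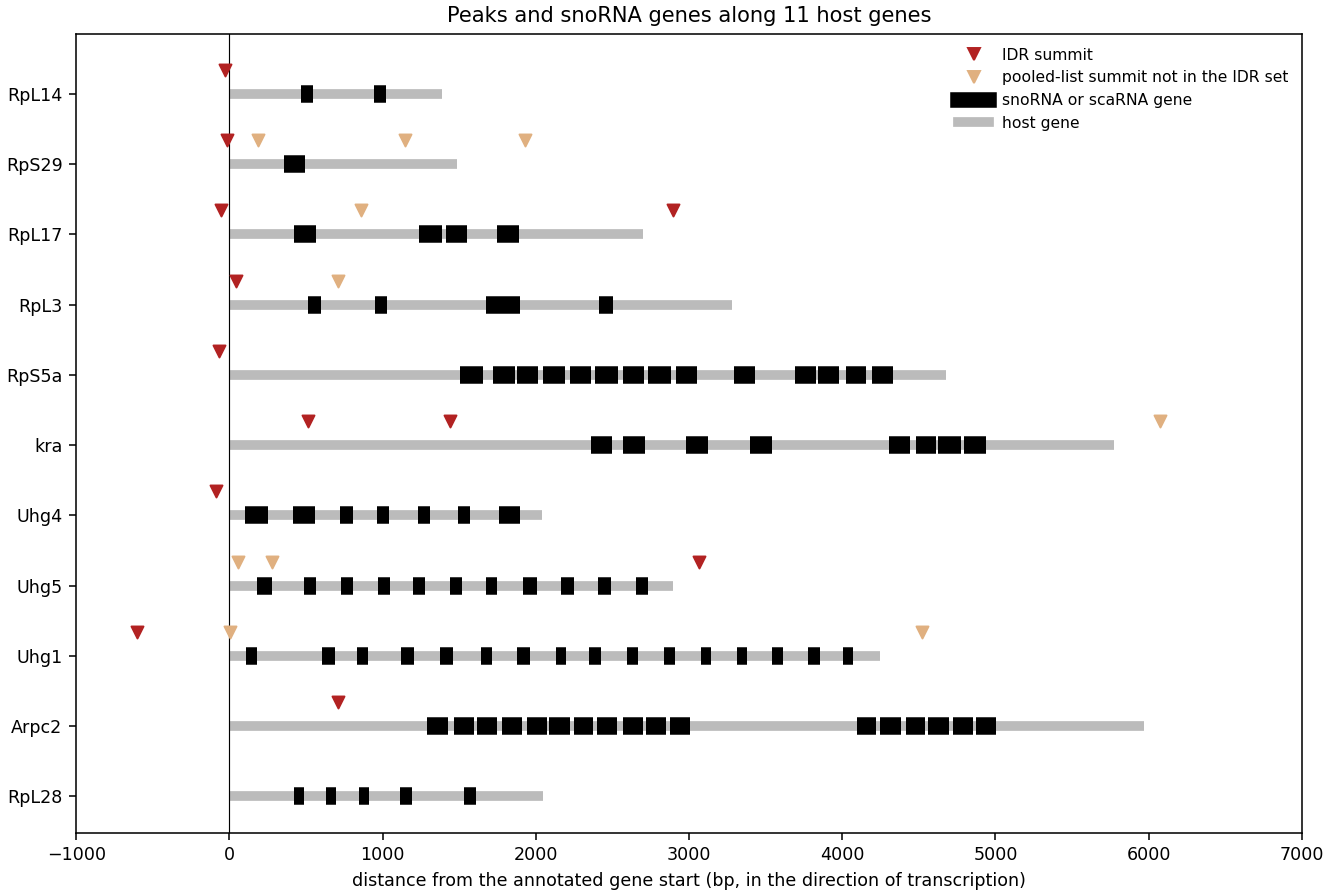
Positions along 11 host genes (x axis, distance in bp from the annotated gene start in the direction of transcription), with host genes in grey, snoRNA and scaRNA genes in black, IDR summits as dark triangles and further summits of the pooled list as light ones. Promoter summits lie at the left end of RpL14, RpS29, RpL17, RpL3, RpS5a and Uhg4, most small RNA genes lie farther in, and RpL28 has no summit; the kra summit at 510 bp is 55 bp upstream of another annotated start.

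The noncoding hosts, among them the Uhg genes, which exist mainly as carriers of snoRNA genes, went separate ways. Uhg4 and Uhg2 were called in the IDR set, Uhg1 and Uhg5 in the pooled list, and Uhg3, Uhg7, Uhg8, lncRNA:CR45184 and lncRNA:CR42491 had no promoter summit in any list. On the same strand lncRNA:CR42491 lies within RpL22 and lncRNA:CR45184 within Sf3b3, so they are hosts by the rule of the shortest gene. RpL22 was called in the IDR set, and Sf3b3 had a promoter summit in replicate 5 alone (rank 11864). The host lncRNA:CR31647 had one in replicate 7 alone, of rank 28838. Hosts that encode proteins of the snoRNA particles themselves were not called. Nop60B and nop5, a core protein of the methylation guide particles, had no summit in any list, and Fib, fibrillarin, had one of rank 1801 in replicate 5 and none in replicate 7. With 3 such hosts, an IDR share of up to 70.8% lies within the interval.

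At most called host promoters the peak lay far from the snoRNA gene. The median distance between the summit and the nearest member start was 1562.5 bp. It was within 500 bp in 10 of the 48, between 500 and 1000 bp in 10 and above 1000 bp in 28. Of the 48 summits 15 (31.2%) also had the start of another gene within 500 bp, against 37.8% for coding genes that host no member (1107 of 2929). In ribosomal protein hosts this was 8 of 19, RpL14 among them.

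The sequences at the host starts differed by kind. A pyrimidine run as capitalised above was found at 25 of 96 hosts (26.0%), against 4.90% of protein-coding genes (684 of 13945). It was at 19 of 28 ribosomal protein hosts (67.9%) and at 35 of 60 ribosomal protein genes that host no member (58.3%). It was at 3 of 10 noncoding hosts (Uhg1, Uhg4 and Uhg5) and at 3 of 54 other coding hosts (5.56%). Hosts with an IDR promoter summit had the run in 18 of 48, those without one in 7 of 48. Within the ribosomal protein hosts it was 14 of 19 with a summit and 5 of 9 without. Of the 8 printed starts with a promoter peak RpL14, RpS29, RpL15 and RpS6 show the run. RpL17, RpL3, RpS12 and Uhg2 do not show it at the annotated start, although RpL3 and RpL28 have pyrimidine stretches close to theirs.

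Motif letters were sought in 201 bp around the strongest promoter summit of each of the 48 called hosts, on both strands. The DNA replication-related element, TATCGATA, was in 5 of them (10.4%), against 4.42% of IDR peaks within 500 bp of a coding start (139 of 3143) and 1.89% of all IDR peaks. It can be read in the starts of RpS29 and RpS12 printed above. The core of Motif 1, GGTCACAC, was in 3 of 48 (6.25%), against 3.56% and 1.55%. The letters GAGAG were in 10 of 48 (20.8%), against 36.1% and 32.4%, and TATAAA was in 10 of 48 (20.8%), against 20.1% and 20.6%. At the 10 peaks of members with no host TATCGATA and GGTCACAC were in none, GAGAG in 2 and TATAAA in 3. The host shares rest on few windows and were given no interval, so whether they differ from the other peaks was not tested. None of these motifs is contained in another, and a match describes the sequence only.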

How the data were processed

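ChIP-seq of 2 replicates (1 library each) was analysed from 4 narrowPeak lists on dm6. The signal value of each peak is the deposited one, as given by the authors; its scale is not stated, so it was compared only within a list and ranks were used across lists. The aligner, peak caller, IDR threshold and treatment of repeats were among the steps not given in the sources used here. A control library was not analysed here, and without read counts the depth is unknown. The age was taken from the sample source.

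Genes came from Ensembl release 115 (BDGP6.54, the sequence of dm6; arms 2L, 2R, 3L, 3R, 4 and X, transposable elements left out) and sequences from RefSeq. Summits within 500 bp of a start were counted with Python 3.11.15, pandas 2.3.3 and numpy 2.4.6, and the counting was tested on simulated summits. Intervals came from scipy 1.17.1. With 1 group there was no contrast and no p-value.

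Named were all called loci, hosts with 5 or more members, members with no host that have a summit, the 3 hosts with most members in each of the 5 kinds, and the 3 strongest host promoters. Members and lists were chosen with earlier results of these data known.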

Additional observations from a re-analysis of the deposited data

How the results depend on the processing

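Of 67 values recomputed under alternative settings, 45 stayed within 1.5 times the reported count and 22 did not. In the 2143 strongest peaks of the IDR set there were 10 members called, 9 loci, 24 host promoters, 11 ribosomal protein host promoters, 6 members with the nearest summit at the host promoter and 1 away from it, and 3 members and 3 loci with no host. Among these peaks 25% of hosts were called, against 7.89% of coding genes. The whole pooled list gave 52 members, 20 at the host promoter, 14 away from it and 17 with no host. Within 200 bp there were 15 members (5.47%, against 12% of all genes), 15 loci, 4 at the host promoter, 5 away and 6 with no host. Within 1000 bp there were 69 members (25.2%, against 22.2% of all genes), 44 loci, 41 at the host promoter and 15 away, so at this distance the members' share was above that of all genes. In the settings of 200 and 1000 bp the same distance was also the limit for host promoters. Leaving out summits with another gene's start within 500 bp left 7 members with no host called (30.4%), a setting chosen after the data were seen. With the 8574 strongest peaks of a single replicate, leaving out each in turn, the members called were 28 and 29, the loci 25 and 26, the host promoters 48 and 51, the ribosomal protein host promoters 18 and 20, members at the host promoter 9 and 12 and away 7 and 8, and members and loci with no host 8 to 13 and 8 to 10. Host promoters were called more often than coding genes in every setting of list, distance and peak shape tried. Taking the longest gene as host or the gene start alone, and counting any base of a peak, kept counts within 1.5 times. Members called in both replicates were 47, and 42 where the peaks had to overlap by 50% of each. No paired analysis was possible because there was 1 group. Depth is unknown, the lists of 30000 peaks do not show where binding ends, and copies that share sequence cannot be told apart.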
